A study of Mus musculus with 12 samples.

Results

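The Serpina3 genes of the mouse encode serpins, protease inhibitors descended from the ancestor of human alpha-1-antichymotrypsin. The 7 genes described here, Serpina3b, Serpina3c, Serpina3f, Serpina3g, Serpina3i, Serpina3m and Serpina3n, were chosen by symbol, from 14 Serpina3 symbols among 55401 genes measured, with their FPKM in all 12 samples and earlier results of these data in view. FPKM, fragments scaled to transcript length and library size, is a level per length and allows levels of different genes to be compared. Because the levels in these samples took part in the choice, they are given as a description, and tests between groups of the same samples are not independent support for any pattern. The fall of Serpina3b in the mutant on day 0 was among the results already known.

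RNA was measured by poly(A) RNA sequencing in dermis, the connective tissue layer of skin, from C57BL/6 mice aged 6 weeks in an experiment with paired wounds of equal size. The 4 groups were wild type (WT) on day 0, Cthrc1-/- on day 0, WT on day 7 and Cthrc1-/- on day 7, each with 3 biological replicates. Cthrc1-/- mice lack Cthrc1, the gene of a secreted matrix protein with a collagen-like repeat. The labels name no further allele, agent or treatment, and give neither how the deletion was made nor how the dermis was separated. Nothing in them says whether day 0 dermis was taken from intact skin.

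A serpin presents an exposed reactive centre loop as bait. The protease cuts this loop, the loop inserts into the body of the serpin, and the protease is left bound and inactive, so the letters of the loop largely set which proteases are caught. Mice carry a row of tandem Serpina3 copies where humans have a single SERPINA3 gene. Serpina3n is a secreted acute phase protein that inhibits granzyme B and neutrophil serine proteases, and it has been studied in skin repair. Serpina3g, also called Spi2A, stays inside the cell, is induced by NF-kB and inhibits lysosomal cysteine cathepsins.

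In GRCm38 the 7 members lie on chromosome 12 between positions 104127996 and 104414329, a stretch of 286.334 kb. All 7 are annotated as protein-coding, and Serpina3c alone among them is on the minus strand. Over aligned coding bases, identity between members ranged from 75.0% to 92.1% in 21 pairs, lowest for Serpina3b with Serpina3i and highest for Serpina3f with Serpina3i. Pairs with Serpina3g rested on only 643 to 744 aligned bases. Its longest transcript has an annotated coding part of 248 codons, against 408 to 445 in the other members. The part of the last coding exon that encodes the reactive centre loop is shown because the loop meets the protease. Capitals mark the stretch of the loop that varies between copies. It lies between hinge codons on the left and codons on the right that are largely alike, though those of Serpina3b differ at several bases.
Serpina3b (chr12:104138659-104138754, plus strand): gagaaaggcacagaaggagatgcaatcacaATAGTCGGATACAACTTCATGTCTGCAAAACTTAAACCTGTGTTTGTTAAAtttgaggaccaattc
Serpina3c (chr12:104147307-104147393, minus strand): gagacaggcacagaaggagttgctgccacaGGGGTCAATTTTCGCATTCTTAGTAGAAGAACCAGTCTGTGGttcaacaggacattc
Serpina3f (chr12:104220239-104220337, plus strand): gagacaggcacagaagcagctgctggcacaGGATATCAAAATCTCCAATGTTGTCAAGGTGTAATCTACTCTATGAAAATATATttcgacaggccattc
Serpina3g (chr12:104241066-104241161, plus strand): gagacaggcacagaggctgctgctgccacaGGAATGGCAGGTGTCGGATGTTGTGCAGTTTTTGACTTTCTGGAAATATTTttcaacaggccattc
Serpina3i (chr12:104268474-104268569, plus strand): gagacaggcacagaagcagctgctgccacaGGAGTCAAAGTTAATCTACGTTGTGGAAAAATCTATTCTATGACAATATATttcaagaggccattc
Serpina3m (chr12:104393763-104393858, plus strand): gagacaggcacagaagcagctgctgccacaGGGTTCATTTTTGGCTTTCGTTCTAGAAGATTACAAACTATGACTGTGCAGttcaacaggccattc
Serpina3n (chr12:104413442-104413537, plus strand): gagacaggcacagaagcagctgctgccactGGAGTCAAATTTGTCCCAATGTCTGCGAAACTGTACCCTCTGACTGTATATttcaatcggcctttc

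The capitals were set at fixed distances from the ends of a stretch found by a pattern, and conservation was not measured. The pattern fixed letters near the ends and left the middle free, so lower identity in the capitals is a description of the choice. Over the 21 pairs the median identity was 58.5% in the capitals (range 33.3% to 85.1%) and 85.7% in the rest (range 76.4% to 92.4%). Serpina3b and Serpina3g shared 33.3% of the aligned capitals and 80.1% of the rest, the least alike loops of the family. Serpina3f and Serpina3i had the most alike loops, at 85.1%. The loops of Serpina3b and Serpina3n, the members with the highest FPKM, shared 58.8%.

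Such similarity bears on the counting of reads. Of the 150-base windows in each longest transcript, the length of 1 read, none was shared exactly with another gene for Serpina3b, Serpina3c, Serpina3f, Serpina3g, Serpina3i and Serpina3n. Serpina3m shared 5 of 1510 windows (0.331%) with Serpina3k. Over windows of 50 bases the shared part ran from 2.92% in Serpina3b to 19.1% in Serpina3m. The annotated gene of Serpina3m also starts at the first exon of Serpina3k (chr12:104338486-104338545) and spans that gene, so its values are the least certain of the family.

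Promoter letters could be read for 6 of the 7 members from RefSeq (GRCm38.p6), and the 250 bases before each annotated start were searched on both strands for TTCNNNGAA, the palindrome that STAT proteins bind, because STAT3 carries the signal of the interleukin 6 family of cytokines to acute phase genes. The aligned stretches below are shown because the copies differ at this motif, and capitals mark a match.
Serpina3b (chr12:104127845-104127908, plus strand): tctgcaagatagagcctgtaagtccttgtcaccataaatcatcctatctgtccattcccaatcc
Serpina3c (chr12:104153957-104154020, minus strand): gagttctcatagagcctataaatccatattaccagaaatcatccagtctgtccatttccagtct
Serpina3f (chr12:104214395-104214458, plus strand): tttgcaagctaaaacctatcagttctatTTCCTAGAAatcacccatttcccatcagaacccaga
Serpina3g (chr12:104236086-104236146, plus strand): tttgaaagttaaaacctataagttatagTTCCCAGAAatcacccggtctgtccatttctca
Serpina3i (chr12:104262992-104263055, plus strand): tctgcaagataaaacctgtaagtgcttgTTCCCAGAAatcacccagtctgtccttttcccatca
Serpina3n (chr12:104406557-104406620, plus strand): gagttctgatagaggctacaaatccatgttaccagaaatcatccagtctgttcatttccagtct

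Serpina3f, Serpina3g and Serpina3i each held 1 match, and no match was found in the 250-base windows of Serpina3b, Serpina3c and Serpina3n. Of 32851 RefSeq promoter windows of the same length, 7.02% held the motif. A match is only a run of letters, and its absence from a window says nothing about binding elsewhere.

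**Figure D1:**
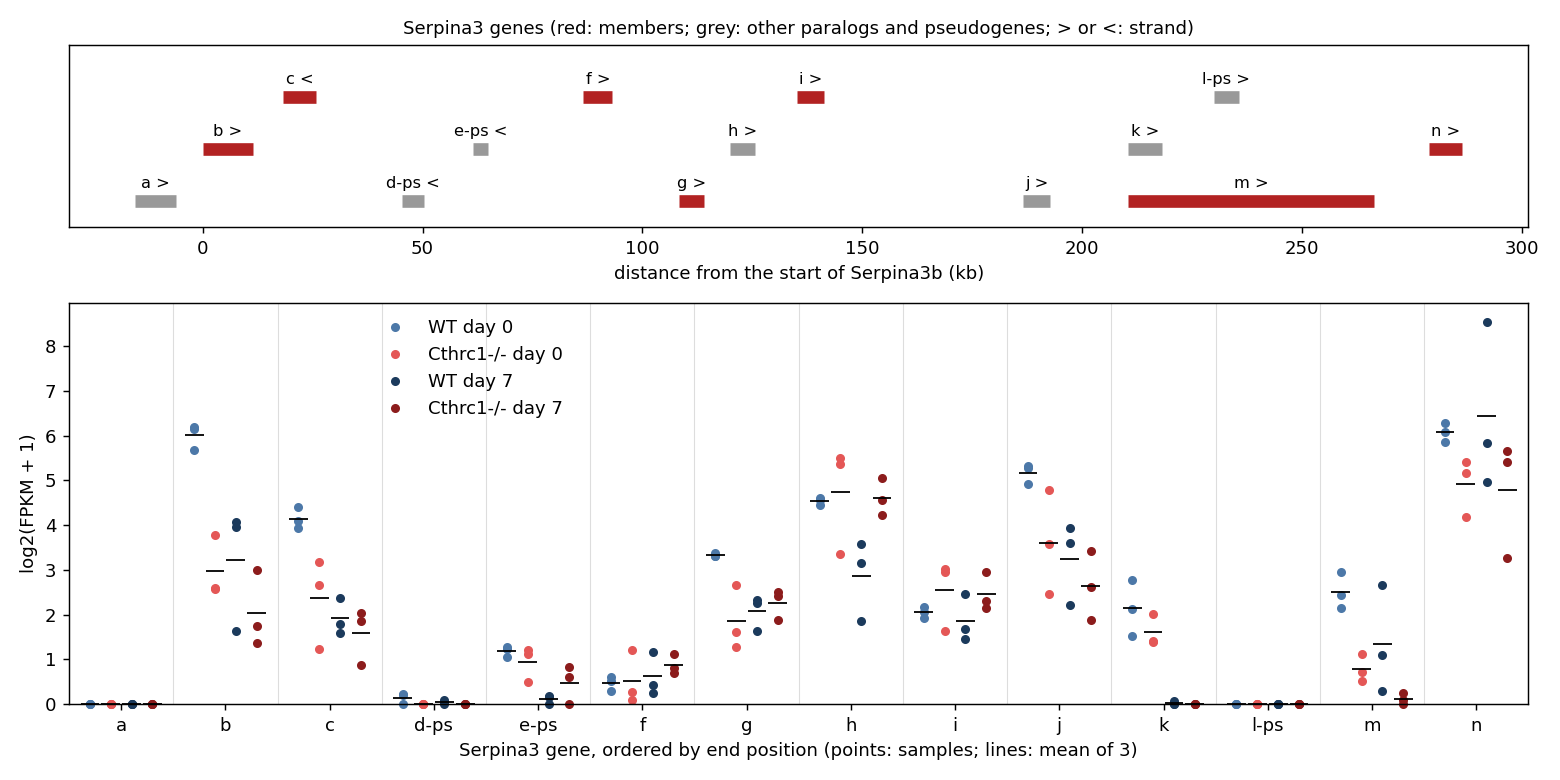
Upper panel, position of the Serpina3 genes as distance from the start of Serpina3b in kb, with members in red and other copies in grey. Lower panel, log2(FPKM + 1) of each copy, with 1 point per sample (3 per group) and a line at the group mean; Serpina3b and Serpina3n stand highest among the members in WT on day 0, and Serpina3a and Serpina3l-ps are at 0 in all 12 samples.

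Total counts per sample ranged from 48329668 to 76938132, so that 3 counts, the most that a count of 0 allows if each count is 1 fragment, correspond to 0.0390 to 0.0621 CPM, counts scaled to a common library size (counting error only). Low counts pile up at multiples of 4, so the true limit may be higher. Cthrc1 counts were 1813 to 11678 in the 6 WT libraries and at most 15 in the 6 Cthrc1-/- libraries. The tissue label was checked against marker genes summed as FPKM. All 8 fibroblast markers were detected, with day 0 sums of 5095 to 6695 (WT) and 394 to 2583 (Cthrc1-/-) and day 7 sums of 3711 to 5478 (WT) and 2313 to 3739 (Cthrc1-/-). The 9 markers of basal and wound keratinocytes summed to 3077 or more in every library, so these dermis samples held epidermal or follicle transcripts. The 12 measured hair follicle markers summed to 14.4 to 17.5 in WT day 0 and to 257 to 12143, 1740 to 4111 and 543 to 5498 in the other groups in the order above. WT day 7 replicate 1 stood apart, with 8 neutrophil markers summing to 5079, against 742 and 39.8 in the other WT day 7 libraries. Its basal and wound keratinocyte sum was 3077, against 7796 and 7840 in those libraries. Its suprabasal keratinocyte sum was 518, against 2273 and 4607, and both keratinocyte sums were the lowest of the 12 libraries. The part of these differences in the Serpina3 values was not tested. In bulk tissue, fewer cells of a type and less RNA per cell cannot be told apart.

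Serpina3b and Serpina3n together contributed 61.7% to 95.5% of the summed FPKM of the 7 members in each library. With the copies Serpina3h, Serpina3j and Serpina3k added to the sum, their share was 29.7% to 94.0%, and it was under 50% in 4 of the 6 Cthrc1-/- libraries. Serpina3h had the highest FPKM of these 10 copies in Cthrc1-/- day 0 replicates 1 and 2 and in Cthrc1-/- day 7 replicate 3. The sum itself ranged over 138 to 189 for WT and 27.8 to 77.8 for Cthrc1-/- on day 0. On day 7 the ranges were 51.3 to 392 for WT and 25.4 to 67.2 for Cthrc1-/-. WT day 0 lay above both mutant groups without overlap, while the range of WT day 7 overlapped the upper part of both. The make-up changed as well as the level. The ratio of Serpina3n to Serpina3b was 0.960, 1.07 and 1.13 in WT day 0, close to equal parts, and it exceeded 1.13 in each of the other 9 libraries. On day 0 in the mutant it was 3.26, 6.92 and 3.49. On day 7 it was 177, 3.56 and 2.09 for WT and 26.4, 21.1 and 1.23 for Cthrc1-/-. Serpina3n was thus the larger in 2 of 3 WT day 0 libraries and in all 9 others.

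**Figure D2:**
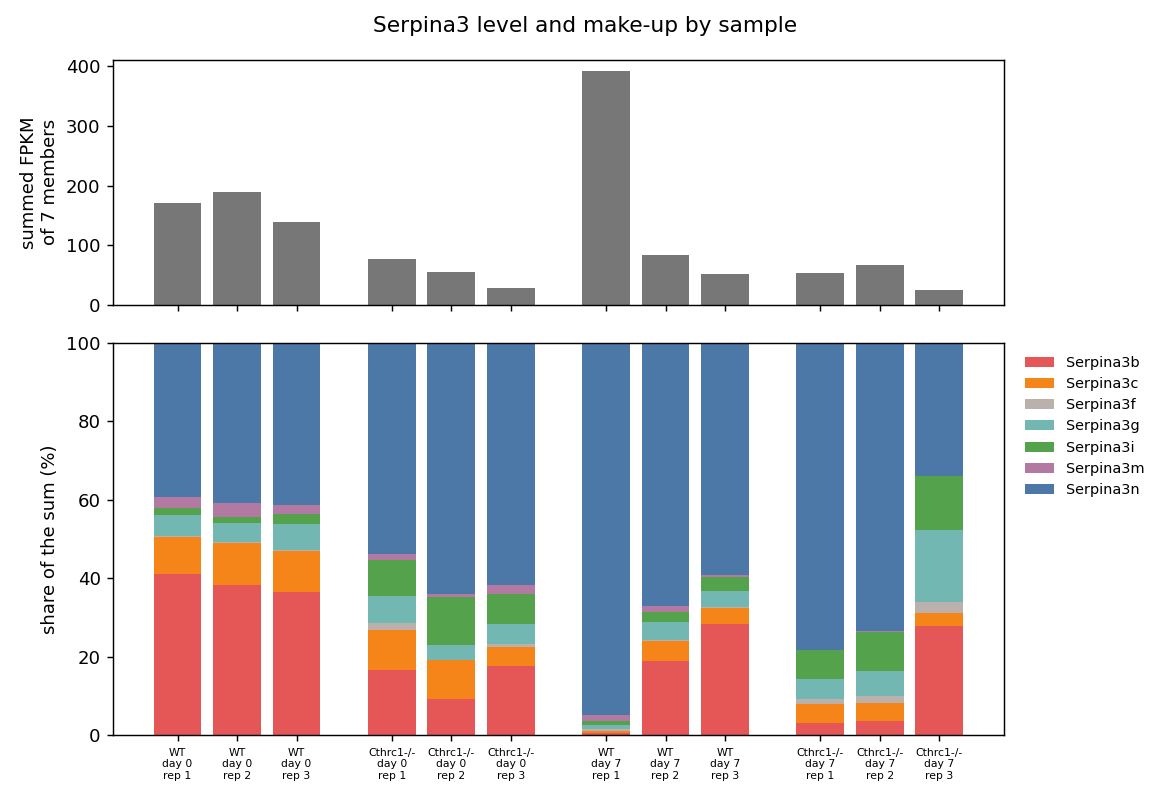
Upper panel, summed FPKM of the 7 members in each of the 12 libraries. Lower panel, the share of each member in that sum in percent; Serpina3b holds 36.6% to 41.0% in WT day 0 and 0.537% in WT day 7 replicate 1, where Serpina3n holds 95.0%.

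Serpina3n, the secreted inhibitor of granzyme B, had the highest mean FPKM of the 7 members in each of the 4 groups. Its FPKM was 67.2, 77.2 and 57.1 in WT day 0 (mean 67.2 ± 10.1, SD, n = 3) and 41.9, 35.1 and 17.2 in Cthrc1-/- day 0 (31.4 ± 12.8, SD, n = 3). All 3 mutant libraries lay below all 3 WT libraries on day 0. On day 7 it was 372, 56.2 and 30.4 in WT and 41.5, 49.3 and 8.64 in Cthrc1-/-. The WT day 7 mean of 153 ± 190 (SD, n = 3) therefore rested on replicate 1, while replicate 3 lay inside the range of the mutant and replicate 2 just above it. The log2 change from day 0 to day 7 in WT was 1.11 (SE 0.912) with an edgeR adjusted p of 0.433. Without WT day 7 replicate 1 that change was -0.77, so its direction turned on 1 library. The genotype difference on day 7 was -2.38 on the log2 scale (SE 0.948, edgeR adjusted p = 0.907), and -0.41 without the same library.

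Of 25 genes of the interleukin 6, STAT3 and glucocorticoid pathways, 16 had their highest FPKM of the 12 libraries in that library and 1, the acute phase gene Orm1, its lowest. Of all genes tested, 14.8% had their highest and 22.8% their lowest value there. Orm1 was at 12.2 FPKM, against 23.5 and 30.4 in WT day 7 replicates 2 and 3. The next 3 genes were picked from that list after their values were seen. Hp, which encodes haptoglobin, was at 423 FPKM, against 35.1 and 14.2 in WT day 7 replicates 2 and 3. Osm, which encodes the cytokine oncostatin M, was at 95.4 FPKM, against 1.86 and 2.19. Timp1, a metalloprotease inhibitor gene, was at 2721 FPKM, against 75.7 and 39.7. The neutrophil markers given above were highest in the same library, and their part in the Serpina3n value was not tested. Serpina3b was at 2.10 FPKM there, the lowest of the WT libraries.

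Serpina3b was at 70.0, 72.3 and 50.7 FPKM in WT day 0 (64.3 ± 11.9, SD, n = 3) and at 12.8, 5.08 and 4.91 in Cthrc1-/- day 0 (7.61 ± 4.53, SD, n = 3). The WT mean was 8.45 times the mutant mean on day 0, and the ranges were far apart. On day 7 it was at 2.10, 15.8 and 14.6 FPKM in WT and at 1.57, 2.34 and 7.04 in Cthrc1-/-, with overlap. From day 0 to day 7 in WT it fell by 2.81 on the log2 scale (SE 0.763, edgeR adjusted p = 0.0388). For the mutant, already low on day 0, the corresponding value was -1.25 (SE 0.728, edgeR adjusted p = 0.398). The order of the group means was WT day 0, WT day 7, Cthrc1-/- day 0 and Cthrc1-/- day 7, and only the step from the first to the second separated ranges.

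Serpina3c was also highest in WT day 0, at a lower level, and here the mean of the mutant on day 0 (4.94 FPKM) lay above that of WT day 7 (2.89), the reverse of Serpina3b, with overlapping ranges. It was at 16.1, 20.1 and 14.3 FPKM in WT day 0 and at 8.10, 5.37 and 1.37 in Cthrc1-/- day 0, without overlap. On day 7 it was at 2.47, 4.17 and 2.02 FPKM in WT and at 2.63, 3.14 and 0.840 in Cthrc1-/-, with overlapping ranges. In WT it fell from day 0 to day 7 by 2.73 on the log2 scale (SE 0.667, edgeR adjusted p = 0.0275).

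Serpina3g, the intracellular cathepsin inhibitor, was the least variable member in WT day 0, at 9.38, 8.98 and 9.01 FPKM. All 9 other libraries were lower, at 5.33, 2.08 and 1.41 FPKM in the mutant on day 0. On day 7 they were at 4.04, 3.81 and 2.10 (WT) and 2.69, 4.33 and 4.67 (Cthrc1-/-). The 3 lower groups overlapped one another. The change between days in WT was -1.62 on the log2 scale (SE 0.494) with an edgeR adjusted p of 0.0551, just outside the threshold of 0.05. It passed with DESeq2 (adjusted p = 0.00888) and with edgeR on only the 2 groups compared (0.0264). Limma also called it, on log2(FPKM + 1) (0.0336) and log2(FPKM + 0.1) (0.0442). With 1 WT library left out, the edgeR adjusted p was 0.0815 to 0.126. In Cthrc1-/- the change between days was 0.22 (SE 0.483, edgeR adjusted p = 0.859). The interaction, the mutant's change between days minus that of WT, was 1.84 (SE 0.687, edgeR adjusted p = 0.267). It passed without Cthrc1-/- day 0 replicate 1, at 2.64 and an edgeR adjusted p of 0.0492.

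Serpina3m was at 4.45, 6.74 and 3.42 FPKM in WT day 0 and at 1.18, 0.444 and 0.658 in Cthrc1-/- day 0, without overlap. It was at 5.38, 1.13 and 0.233 in WT day 7, with replicate 1 again the highest and a range that overlapped both day 0 groups. In Cthrc1-/- day 7 it was low, with 10, 25 and 0 counts, all below the 29 to 639 counts of WT day 7. The log2 difference between genotypes on day 7 was -4.83, the farthest from 0 among the members, with an edgeR p of 0.00391 before and 0.907 after adjustment (fitted on all 12 samples). DESeq2 gave -4.86 with an adjusted p of 0.00563 for the same difference. With 1 day 7 library left out, the edgeR value ranged from -6.03 to -2.98, with an adjusted p of at least 0.354. For the mutant, day 7 differed from day 0 by -3.26 (log2 scale, SE 1.23, edgeR adjusted p = 0.197).

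Serpina3i and Serpina3f, whose coding sequences are the most alike of the family, did not share the day 0 difference of the other members. Those others had all Cthrc1-/- values below all WT values on day 0. On day 0 Serpina3i was at 3.19, 2.81 and 3.51 FPKM in WT and at 7.15, 6.74 and 2.13 in Cthrc1-/-. On day 7 it was at 4.48, 2.22 and 1.74 FPKM in WT and at 3.96, 6.73 and 3.47 in Cthrc1-/-. All 4 ranges overlapped, and its log2 difference between genotypes was 0.67 (SE 0.528) on day 0 and 0.63 (SE 0.527) on day 7. Serpina3f stayed between 0.0734 and 1.33 FPKM in all 12 libraries. Its mean fell below the minimum of 1 FPKM for the test, so 6 of the 7 members were tested. In a fit without that minimum its 4 log2 changes between groups lay between 0.37 and 0.51, with standard errors of 0.932 to 0.940.

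**Figure D3:**
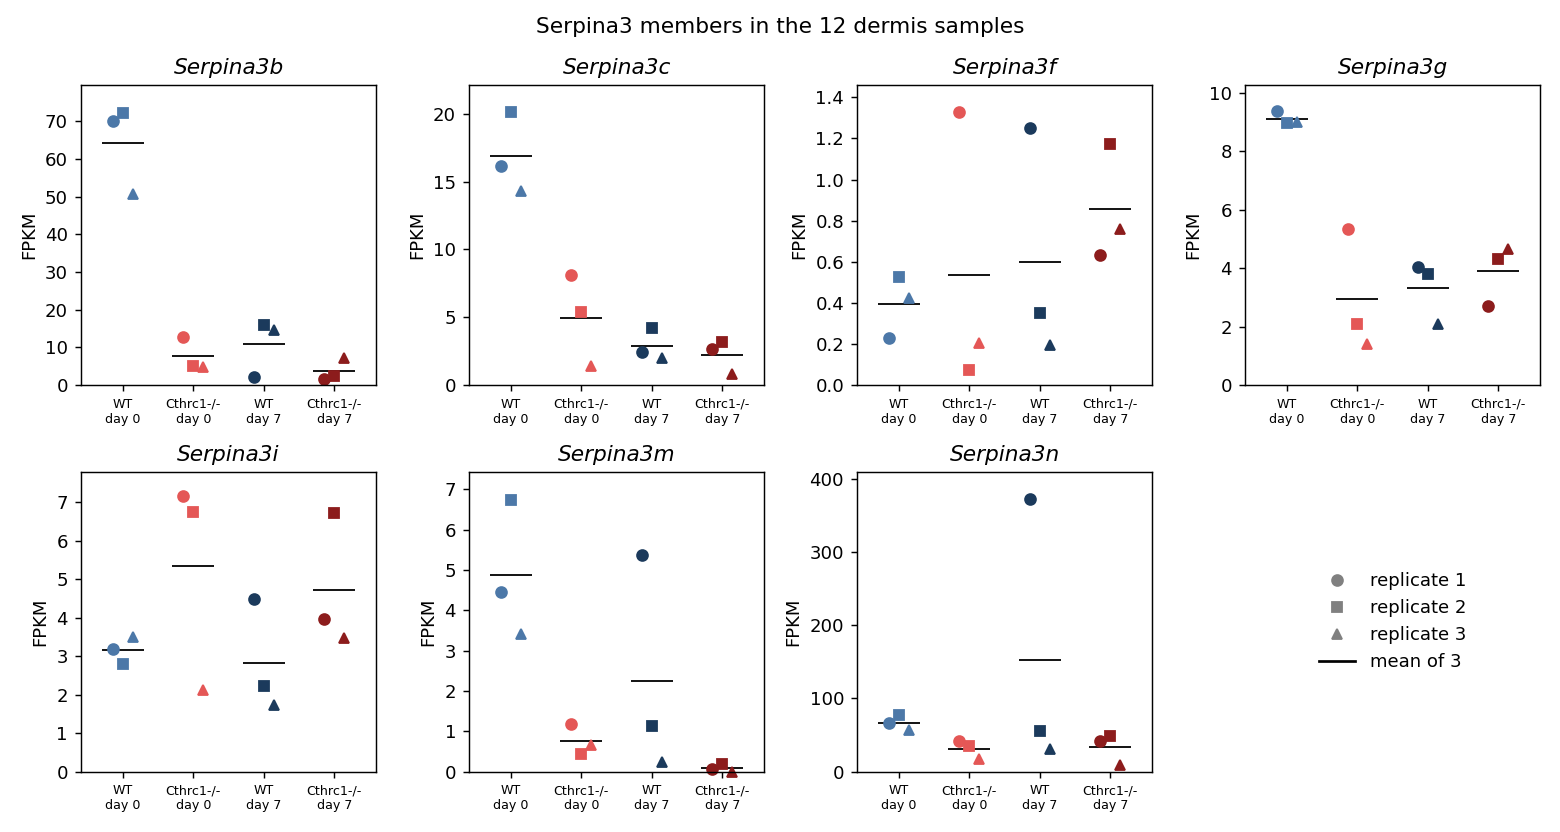
FPKM of each member in the 4 groups, with 1 point per sample, a marker shape per replicate number and a line at the mean of 3. WT day 0 lies above Cthrc1-/- day 0 without overlap for Serpina3b, Serpina3c, Serpina3g, Serpina3m and Serpina3n, and the Serpina3n point at 372 is WT day 7 replicate 1.

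Between genotypes on day 0, 5 of the 7 members had all 3 Cthrc1-/- values below all 3 WT values. Of all 14313 genes tested, 19.8% showed that separation in that direction. The log2 differences were -3.16 (SE 0.775) for Serpina3b, -2.76 (SE 1.15) for Serpina3m, -1.84 (SE 0.645) for Serpina3c, -1.71 (SE 0.495) for Serpina3g and -1.18 (SE 0.914) for Serpina3n. The median over the 6 tested members was -1.77, beside -0.05 over all genes tested. By edgeR 1 of the 6, Serpina3b, was called at an adjusted p under 0.05, where 5.78% of all genes were called; since this contrast took part in the choice of the family, nothing is read from that count. The Serpina3b call (edgeR adjusted p = 0.0455) was lost with a replicate block (0.0620), total count scaling (0.0503), no filter on low values (0.0727), filterByExpr (0.0601) and only the 2 groups compared (0.0792). It was also lost without any 1 library of these groups (0.115 to 0.129) other than Cthrc1-/- day 0 replicate 1, without which it was 0.0262. Cthrc1-/- day 0 replicate 3, which held the lowest fibroblast sum (394) and macrophage sum (117) of all 12 libraries, also had the lowest day 0 values of Serpina3b, Serpina3c, Serpina3g, Serpina3i and Serpina3n. The part of cell make-up in the difference was not tested.

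Between genotypes on day 7, no member was called by edgeR, where 0.021% of all genes were called. DESeq2 called 1 (Serpina3m), limma on log2(FPKM + 1) called 0, and 2 members (Serpina3m and Serpina3n) had an unadjusted edgeR p under 0.05. Of all 14313 genes tested, 782 had such an unadjusted p. The share of all genes called by DESeq2 is not given here, so nothing is read from its call. Serpina3m alone had all mutant values below all WT values, as did 2.67% of all genes. The median log2 difference of the 6 was -1.03, beside -0.01 over all genes.

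Between days in WT, edgeR called 2 of the 6 members, Serpina3b and Serpina3c, both lower on day 7, where 13.1% of all genes were called. Serpina3b, Serpina3c and Serpina3g had all day 7 values below all day 0 values, as did 14.1% of all genes. The median log2 change of the 6 was -1.41, beside 0.00 over all genes. Neither call held when any 1 of the 6 WT libraries was left out, with edgeR adjusted p between 0.0588 and 0.0972 for Serpina3b and between 0.0532 and 0.0794 for Serpina3c. Markers of hepatocytes, 10 genes of which none was at 0 in all libraries, summed on day 0 to 33.9 to 91.8 FPKM (WT) and 37.1 to 57.2 (Cthrc1-/-), and to at most 2.82 in any day 7 library. Several Serpina3 genes are expressed in liver, and the part of these transcripts in the fall between days was not tested.

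Between days in Cthrc1-/-, no member was called by edgeR, where 1.46% of all genes were called. DESeq2 called 1 (Serpina3m), limma on log2(FPKM + 1) called 0, and 1 member had an unadjusted edgeR p under 0.05. Of all 14313 genes tested, 2596 had such an unadjusted p, so nothing is read from that member. Again the DESeq2 share over all genes is not given, so nothing is read from its call. Serpina3m alone had all day 7 values below all day 0 values, as did 4.99% of all genes. The median log2 change was -0.80, beside -0.01 over all genes. The comparisons share groups, so a member high in WT day 0 enters both the day 0 genotype difference and the WT change between days. Whether the changes differed between genotypes is the question of the interaction, in which edgeR called no member and 0.014% of all genes. DESeq2 and limma on log2(FPKM + 1) also called none there, and 1 member, Serpina3g, had an unadjusted edgeR p under 0.05. In the interaction 2164 of all 14313 genes had such an unadjusted p, so nothing is read from that of Serpina3g.

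**Figure D4:**
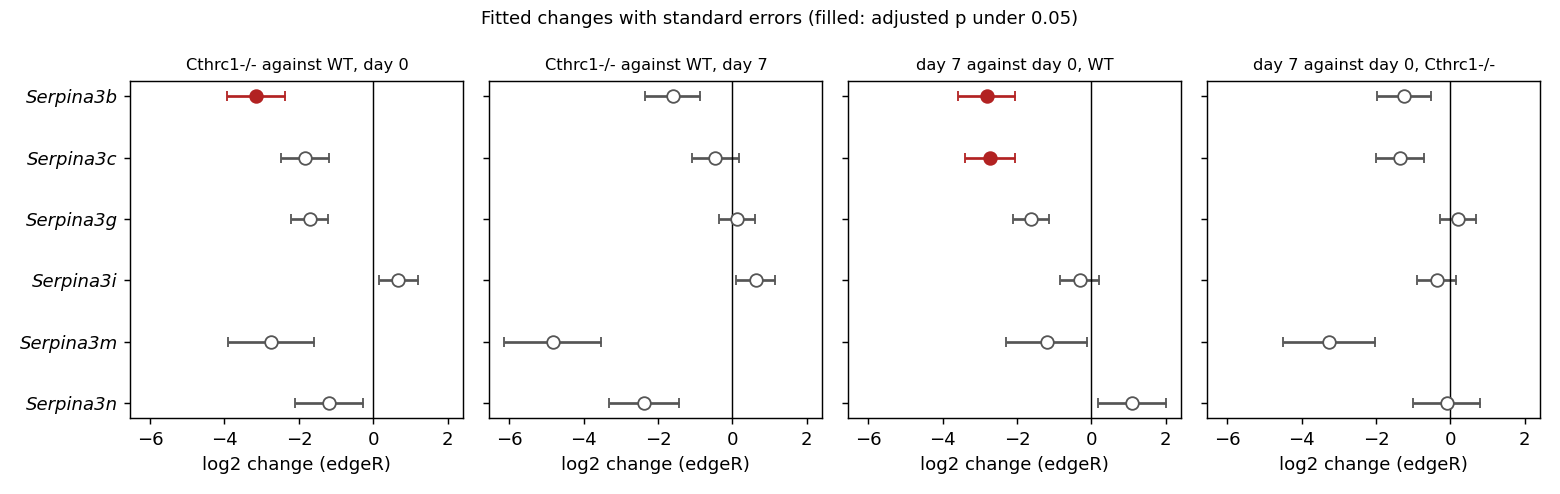
Fitted log2 change of the 6 tested members in 4 comparisons, each point with its standard error, from edgeR on all 12 samples. Filled red points passed an adjusted p under 0.05 (Serpina3b on day 0 between genotypes, Serpina3b and Serpina3c between days in WT); the Serpina3m point at -4.83 on day 7 has the widest error and did not pass.

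Across the 12 libraries, members differed in how closely they followed one another. Pearson r of log2(FPKM + 1) was 0.79 for Serpina3b with Serpina3c, 0.78 for Serpina3c with Serpina3g and 0.73 for Serpina3m with Serpina3n. Serpina3b and Serpina3n had an r of 0.05 over the 12 libraries and of 0.50 without WT day 7 replicate 1, an alternative chosen after the data were seen, so the low value rested on 1 library. Without it r also went from 0.40 to 0.82 for Serpina3c with Serpina3n and from 0.61 to 0.91 for Serpina3b with Serpina3m. Over all 12 Serpina3i had an r between -0.37 and 0.17 with every member other than Serpina3f (0.55). The libraries share their groups and depth, so these values are descriptions.

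The genes most like Serpina3n in pattern, among 12578 ranked by Pearson r over the 12 libraries, were Pygl (r = 0.94), which encodes liver glycogen phosphorylase, Cd163 (r = 0.94), a macrophage scavenger receptor gene for haptoglobin and haemoglobin, and Hp (r = 0.94). Cd163 was at 2.69, 3.96 and 3.59 FPKM in WT day 0 and 6.74, 3.10 and 1.55 in WT day 7. In Cthrc1-/- it was at 2.02, 1.23 and 0.857 on day 0 and 2.63, 2.74 and 0.691 on day 7. All 3 genes were highest in WT day 7 replicate 1, as was Serpina3n. Without that library r was 0.87, 0.92 and 0.86. Most like Serpina3b were Tgm7 (r = 0.95), a transglutaminase gene, Serpina3j (r = 0.94) and Lysmd1 (r = 0.94). Tgm7 was at 3.37, 3.43 and 4.48 FPKM in WT day 0 and at 0.555, 0.429 and 0.199 in Cthrc1-/- day 0. It was at 0, 1.20 and 1.29 in WT day 7, so that replicate 1 was again the lowest.

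**Figure D5:**
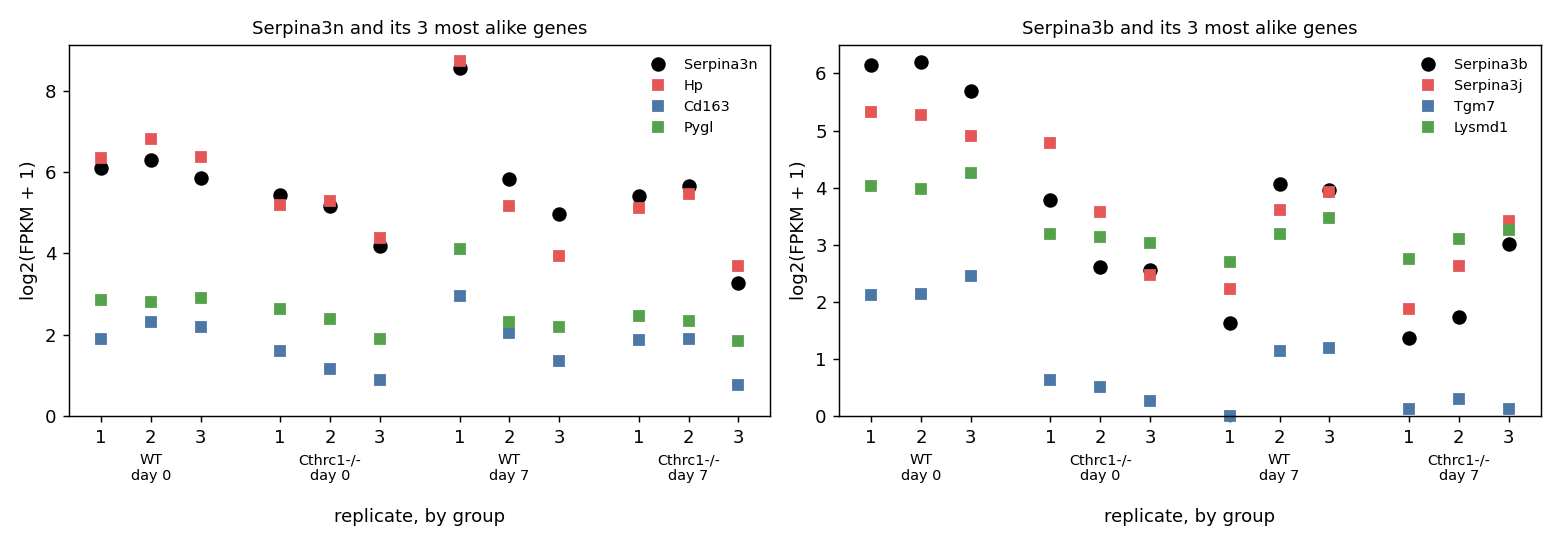
log2(FPKM + 1) of Serpina3n (left) and Serpina3b (right), black circles, with the 3 genes of highest Pearson r, coloured squares, in each replicate of the 4 groups. Hp and Serpina3n peak together in WT day 7 replicate 1, where Serpina3b, Serpina3j and Tgm7 are low.

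Other copies of the family were measured beside the members. On day 0 Serpina3j was at 39.0, 37.8 and 29.1 FPKM in WT and at 26.7, 11.0 and 4.52 in Cthrc1-/-. On day 7 it was at 3.66, 11.2 and 14.3 FPKM in WT and at 2.69, 5.19 and 9.70 in Cthrc1-/-. Its coding sequence was the closest to that of Serpina3b, at 82.3% identity, and WT day 0 again lay above all other libraries. Serpina3h, annotated as a transcribed pseudogene, kept another order, with day 0 ranges of 21.0 to 23.3 FPKM (WT) and 9.32 to 44.4 (Cthrc1-/-). Its day 7 ranges were 2.64 to 11.0 (WT) and 17.6 to 32.4 (Cthrc1-/-). Serpina3k was at 180 to 697 counts in the 6 day 0 libraries, at 0, 8 and 0 in WT day 7 and at 0 in all 3 of Cthrc1-/- day 7. It passed the test between days in WT (edgeR adjusted p = 0.00695) and in Cthrc1-/- (edgeR adjusted p = 0.0216). Serpina3k is a liver gene, and the hepatocyte markers given above were also lower on day 7. Within day 0 the 2 kept the same order over the replicates in WT and the opposite order in Cthrc1-/-. The part of liver transcripts in the Serpina3k values was not tested. Serpina3a was at 0 counts in all 12 libraries.

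Of 14 clade A relatives outside the members, a list that includes Serpina3h, Serpina3j and Serpina3k, 8 were tested. In WT, 4 of these 8 fell from day 0 to day 7, namely Serpina3k and 3 copies of alpha-1-antitrypsin (Serpina1a, Serpina1b and Serpina1c), and none rose (13.1% of all genes were called). The median log2 change of the 8 was -3.49 (0.00 over all genes). In Cthrc1-/-, Serpina3k alone passed (1 of 8, 12.5%, beside 1.46% of all genes). Of 14 other serpins of skin, 13 were tested. In WT, Serpinb3a and Serpine2 rose from day 0 to day 7 and Serpinb8 fell (23.1% of the 13, beside 13.1% of all genes). The median log2 change of the 13 was 0.21. None passed in the other comparisons, where 0.014% to 5.78% of all genes were called. Serpine2, an inhibitor of thrombin and plasminogen activators, went from 5.40 ± 0.519 to 13.9 ± 2.44 FPKM (SD, n = 3), a log2 change of 1.17 (SE 0.224, edgeR adjusted p = 0.0120). That is opposite in direction to the called Serpina3 members.

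Proteases that serpins of these clades can meet in skin came as a list of 18 genes, of which 11 were tested. On day 0, 2 of the 11 were higher in Cthrc1-/- and none was lower (5.78% of all genes were called), while the median log2 difference of the 11 was -0.39 (-0.05 over all genes). They were the kallikreins Klk6, from 1.99 ± 0.753 in WT to 47.8 ± 22.0 FPKM (SD, n = 3, edgeR adjusted p = 0.00941), and Klk7, a protease of the shedding epidermis, from 35.6 ± 2.80 to 147 ± 56.3 FPKM (SD, n = 3, edgeR adjusted p = 0.0329). Klk6 also rose in WT from day 0 to day 7 (log2 change 3.21, SE 0.508, edgeR adjusted p = 0.00645). That is 1 of 11 (9.09%), beside 13.1% of all genes. Gzmb, the granzyme that Serpina3n inhibits, ranged over 0.153 to 0.327 FPKM (WT) and 0.147 to 0.729 (Cthrc1-/-) on day 0, and over 0.855 to 2.46 (WT) and 0.840 to 1.89 (Cthrc1-/-) on day 7. The neutrophil protease genes Ctsg and Elane were at most at 0.388 and 0.326 FPKM in any library, WT day 7 replicate 1 (0 for both) included. Prtn3, another listed neutrophil protease gene, ranged over 0.129 to 0.753 FPKM and was at 0.608 in that library. These are RNA levels, and the proteases themselves were not measured.

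The cytokines, receptors and targets of the interleukin 6, STAT3 and glucocorticoid pathways, which drive acute phase serpins, formed a list of 25 genes with 23 tested. On day 0, 2 (8.70%) were lower in Cthrc1-/- and none was higher, near the 5.78% called among all genes, with a median log2 difference of -0.44 over the 23. These were the glucocorticoid targets Tsc22d3, from 38.1 ± 5.00 to 9.78 ± 5.33 FPKM (SD, n = 3, edgeR adjusted p = 0.0326), and Fkbp5, from 5.74 ± 1.08 to 2.70 ± 0.650 FPKM (SD, n = 3, edgeR adjusted p = 0.0402). In WT from day 0 to day 7, Saa3 and Timp1 rose, and Tsc22d3 and Nr3c1, the glucocorticoid receptor gene, fell, which makes 4 of 23 (17.4%) beside 13.1% of all genes, with a median log2 change of 0.19. Saa3 was at 873, 14.4 and 4.73 FPKM in WT day 7, so the rise was far larger in replicate 1. Nr3c1 was at 20.6, 20.1 and 20.0 FPKM in WT day 0 and at 7.02, 7.76 and 7.98 in WT day 7. None of the 23 passed between genotypes on day 7 or between days in Cthrc1-/-, where 0.021% and 1.46% of all genes were called.

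Of 16 genes of the interferon and NF-kB pathways, which induce Serpina3g among others, 15 were tested. None passed between genotypes on either day, where 5.78% (day 0) and 0.021% (day 7) of all genes were called. The median log2 difference of the 15 was -0.51 on day 0 and 0.36 on day 7. In WT Ifngr2, a subunit of the interferon gamma receptor, rose from 8.61 ± 0.444 to 17.0 ± 3.51 FPKM (SD, n = 3, edgeR adjusted p = 0.0195). That is 1 of 15 (6.67%), beside 13.1% of all genes, with a median log2 change of -0.12 over the 15. In Cthrc1-/- the interferon-induced genes Ifit3 and Ifit1 rose, with log2 changes of 3.57 (SE 0.564, edgeR adjusted p = 0.0224) and 3.08 (SE 0.645, edgeR adjusted p = 0.0495). These are 2 of 15 (13.3%), beside 1.46% of all genes, with a median log2 change of 0.36 over the 15. Serpina3g did not pass in either genotype in the main edgeR fit, and in WT it passed under the other settings named above.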

How the data were processed

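Poly(A) RNA of 12 dermis samples was sequenced, and the submitters' processing notes name cutadapt 1.9, HISAT2 2.0.4, UMI-tools, StringTie 1.3.4d, DESeq2, edgeR and GRCm38, without role or order. The deposited table holds FPKM values and whole-number counts per gene, both made by the authors. A count of 0 carries an FPKM of 0.0001, read here as 0. Counts pile up at multiples of 4 (37.4% to 40.7% of counts from 1 to 20), so a count may not stand for 1 fragment. The reason is not given in the sources used here. The number of value columns left unused was 0. Whether counting used strand is not given in the sources used here.

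Symbols and coordinates came from GENCODE gene models of GRCm38, which named 55141 of 55401 IDs. The deposited counts were tested with edgeR 4.0.16 (quasi-likelihood, two-sided, TMM) in R 4.3.3, with all 12 samples, 1 mean per group and no covariate, over the 14313 genes whose mean FPKM reached 1. P-values were adjusted over all of these by Benjamini-Hochberg, and calls were made below 0.05. Standard errors are the log2 change over the square root of F. Alternatives used DESeq2 1.42.0, limma 3.58.1, other scalings, filters and samples. The procedure was tested on simulated counts. The members and lists were chosen with earlier results of these data known. All members were named, with the 3 genes most correlated with each of the 2 highest members, up to 4 called genes per list, and named paralogs; single list genes in individual libraries were picked after their values were seen. Groups and replicate numbers came from the titles. The labels call the samples biological replicates without naming animals. P-values weigh group differences against the spread between these samples, taken as independent, which the labels do not settle.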

Additional observations from a re-analysis of the deposited data

How the results depend on the processing

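The number of members called on day 0 between genotypes was 1 and moved with the processing. It was 3 with DESeq2 (where 19.6% of all genes were called), 2 with limma on log2(FPKM + 1) or log2(FPKM + 0.1), and 0 with total count scaling, no filter on low values, filterByExpr, or only the 2 groups compared. Leaving out 1 library gave 0 to 2 (2 without Cthrc1-/- day 0 replicate 1, 0 without any other). On day 7 DESeq2 called 1 member in place of 0, and between days in Cthrc1-/- also 1 in place of 0 (Serpina3m both times). Between days in WT, 1 member in place of 2 was called without the filter, and leaving out any 1 library gave 0. Serpina3g gained a call there with DESeq2, only the 2 groups compared, and limma on log2(FPKM + 1) or log2(FPKM + 0.1). The shares of all genes called under those settings are not given here. The interaction gave 0 to 1 when 1 library was left out. Leaving out a library also leaves fewer samples; otherwise the cause was not tested.

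Replicate numbers recur in all groups. Over 18 same-numbered pairs the deviations had correlations of -0.215 to 0.481 (median 0.0140), and 5 of 18 exceeded 0.1, against 5 of 36 pairs with other numbers. In none of the 4 comparisons did all 3 pairs exceed 0.1, so the numbers were not taken to pair samples; all 3 did for Cthrc1-/- day 0 with WT day 7 (0.118 to 0.214), groups that are not compared. With a replicate block, 1 member in place of 2 was called between days in WT. On day 0 the count stayed 1 but Serpina3c (adjusted p = 0.0448) took the place of Serpina3b (0.0620).

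Of the alternative values for single members, 454 kept direction and side of the threshold, 24 lost a call, 13 gained one and 19 changed the sign of a value that had not passed. Total count scaling moved the median of all genes by 0.20 (days in WT), 0.17 (days in Cthrc1-/-) and 0.10 (genotypes on day 0) on the log2 scale.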
